A study of Mus musculus with 8 samples.

Results

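The 10 genes described here, *Glul*, *Axin2*, *Lgr5*, *Lect2*, *Oat*, *Rhbg*, *Tbx3*, *Nkd1*, *Rnf43* and *Znrf3*, are known as targets or feedback regulators of Wnt/β-catenin signaling in the hepatocytes that surround the central vein. They were chosen by name, as the entries of the deposited gene table that carry one of these symbols. All 10 were found among 55385 gene identifiers, and all 10 passed the filter on low values, which asked for 0.5 FPKM or more in 4 or more of the 8 livers and left 14340 genes in all. FPKM are counts scaled to the exon length of a gene and to the total count of the library. Whole-liver RNA was sequenced from 4 *Usp39*-HKO mice and 4 control littermates, with 1 library per mouse. All were males, 5 weeks old and fasted for 16 h. *Usp39*-HKO mice were *Usp39* fl/fl, with *loxP* sites on both sides of exon 2, and carried Albumin-Cre, on a C57BL/6J background. Albumin-Cre acts in albumin-expressing cells, so the endothelial, stellate and immune cells in the same libraries are not its targets. The labels call the controls WT, and whether they carry a floxed allele or Cre is not given in the sources used here. Below, values of single livers follow the order A468, A472, A473 and A475 for controls and A469, A470, A471 and A474 for *Usp39*-HKO mice.

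Liver lobules are zoned between the portal triad, where blood enters, and the central vein, where it leaves. Endothelial cells of the central vein secrete Wnt ligands and R-spondin 3, which keep β-catenin active in the neighbouring hepatocytes, and there β-catenin with TCF factors switches on genes of glutamine synthesis and drug metabolism. The pathway also induces its own brakes. Axin2 joins the complex that degrades β-catenin, Nkd1 acts on Dishevelled, and Rnf43 and Znrf3 are ubiquitin ligases that remove Frizzled receptors from the cell surface, an action that R-spondins block through Lgr receptors such as Lgr5. The libraries are of whole liver and hold no position within the lobule. In such bulk samples, fewer cells of a type and less RNA per cell cannot be told apart.

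TCF factors bind short sites in DNA, so the promoters were searched for letters of that kind. RefSeq (GRCm38.p6) gave a promoter for 6 of the 10 genes, *Glul*, *Axin2*, *Lect2*, *Oat*, *Nkd1* and *Rnf43*. The 250 bases before each start were searched on both strands for CTTTGAT and its variants CTTTGAA, with this CTTTGTT and lastly CTTTGTA, which differ in their last letters and so cannot match at the same place. At least 1 of them was present in 14.8% of 32851 mouse promoters, and CTTTGAT in 3.21%. Of the 6 genes only *Lect2* held a match, 26 to 32 bases before its start (chr13:56548553-56548581, minus strand). Among 24 other pericentral genes, 17 had a promoter and 6 of these held a match, against 2 of 15 periportal genes. In other lists used below, a match was held by 3 of 10 genes of the β-catenin complexes and 2 of 8 endothelial markers. It was held by 0 of 5 midzonal genes and 0 of 7 stellate markers. Differences between lists were not tested. The windows below are those of *Lect2* and of 4 pericentral genes whose levels are given later, so that they can be set beside each other. They run 5′ to 3′ along the strand of the gene, and capitals mark the motif or its reverse complement.

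Lect2: tgcttctccagATCAAAGgctttggccgg

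Slc1a2: agaagagggacATCAAAGgccccaaatgg

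Sp5: ggcaaggccccCTTTGATcaggaaaatcc

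Cyp2e1: caagggtcagcCTTTGAAatgatagccaa

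Cyp1a2: tattctTTCAAAGacatatacctt

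These windows lie at chr2:102706220-102706248 (plus strand, *Slc1a2*), chr2:70474808-70474836 (plus strand, *Sp5*), chr7:140763673-140763701 (plus strand, *Cyp2e1*) and chr9:57683882-57683905 (minus strand, *Cyp1a2*). The windows of *Lect2*, *Slc1a2* and *Sp5* hold the same motif, and in the data below *Lect2* was higher, *Slc1a2* lower and *Sp5* not called in *Usp39*-HKO livers. A match is a description of the letters and not a binding site.

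*Usp39* itself (ENSMUSG00000056305) was at 9.35, 10.4, 8.76 and 9.78 FPKM in control and at 8.37, 8.63, 8.70 and 8.07 FPKM in *Usp39*-HKO livers. Every *Usp39*-HKO value lay below every control value, by a small margin. The log2 fold change was −0.41 ± 0.11 (standard error), with an edgeR adjusted p of 0.0212, which rose to 0.0615 without A474 and to 0.0547 without A475. Without TMM scaling it was −0.18, with an adjusted p of 0.241. Counts cover the whole gene and not exon 2 alone.

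Total counts per library lay between 8589636 and 10418450, and 3 counts corresponded to 0.288 to 0.349 CPM (counts scaled to the library total). Such limits cover counting error only. Errors are SDs over mice or standard errors of the fit, since mice of a genotype differed by more than counting error. The factors of TMM scaling, which set the bulk of genes equal between libraries, were 0.912 to 0.940 in control and 1.01 to 1.19 in *Usp39*-HKO livers. A fold change given below is therefore relative to the median gene (median log2 fold change −0.001), and without TMM scaling that median was 0.234. Of the genes with an adjusted p under 0.05, 48.4% were higher in *Usp39*-HKO livers, against 83.3% without TMM scaling and 61.1% with upper-quartile scaling. For this reason both the deposited FPKM and TMM-scaled FPKM are used for the 10 genes.

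The 10 genes did not move as a unit. *Glul* and *Tbx3* fell to about 0.499-fold and 0.457-fold of the control level, and *Lect2* and *Nkd1* rose 1.5-fold and 1.42-fold. *Axin2*, *Znrf3*, *Oat*, *Lgr5*, *Rhbg* and *Rnf43* did not pass the test. By edgeR's quasi-likelihood test with Benjamini-Hochberg adjustment over all 14340 genes, 4 of the 10 genes were called at an adjusted p under 0.05, where the background was 22.5% of all genes tested. The 2 higher calls stood against a background of 10.9%, and the 2 lower calls against 11.6%. The median log2 fold change of the 10 genes was −0.11, against −0.001 over all genes tested. In deposited FPKM, 4 genes (*Axin2*, *Lect2*, *Nkd1* and *Znrf3*) had every *Usp39*-HKO liver above every control (background 23.9%) and *Tbx3* had every one below (background 4.81%). In TMM-scaled FPKM, *Lect2* and *Nkd1* had every *Usp39*-HKO liver above (background 11.9%), and *Glul* and *Tbx3* had every one below (background 12.9%).

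**Figure D1:**
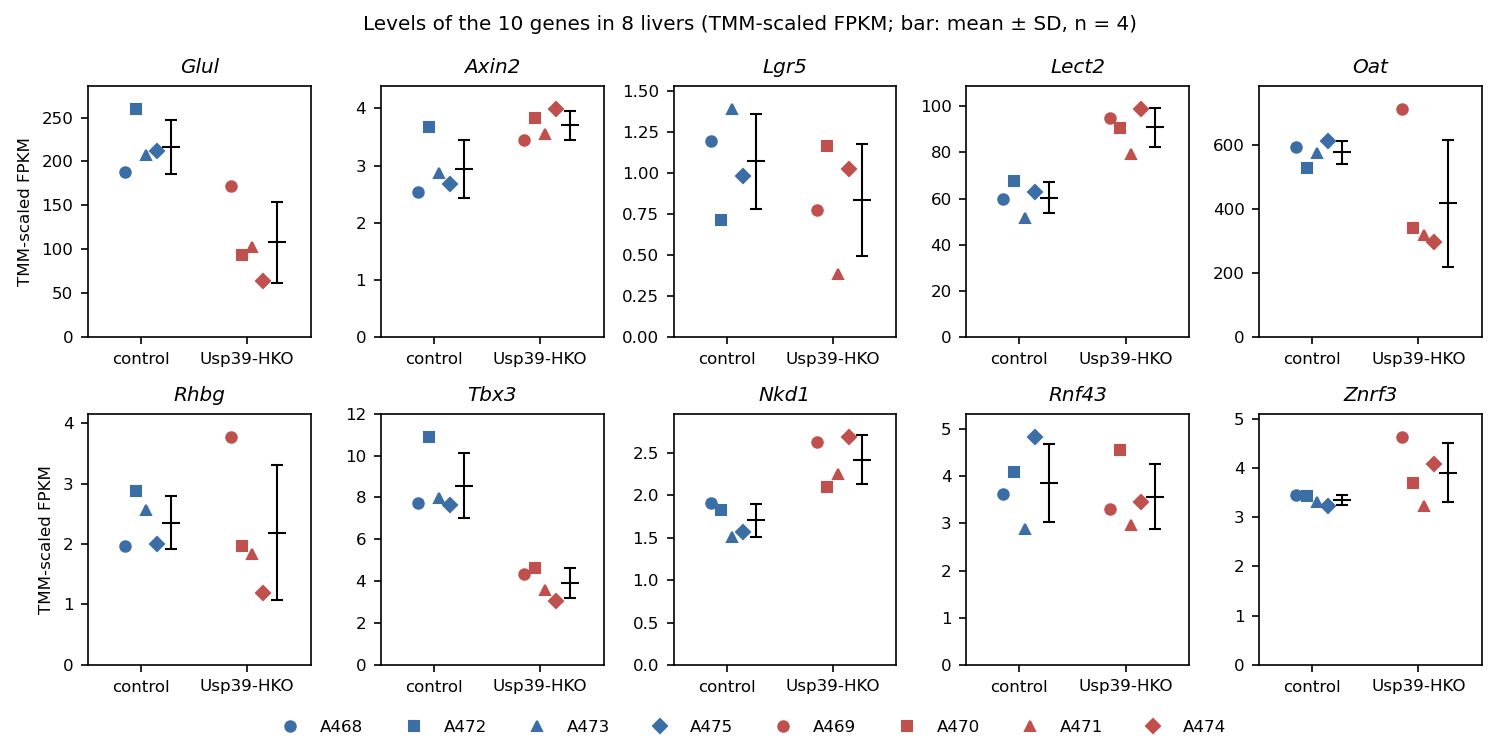
TMM-scaled FPKM (y axis, from 0) of the 10 genes in 4 control and 4 *Usp39*-HKO livers (x axis), with 1 point per liver and a bar for the mean ± SD. *Lect2* and *Nkd1* are separated upward and *Glul* and *Tbx3* downward, and liver A469 stands alone in *Oat* at 713.7.

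The scaling between libraries decided how many feedback regulators passed. Without TMM scaling, and in limma on log2(FPKM + 1) and log2(FPKM + 0.1), which scale to library totals, 4 of the 10 genes were called higher, *Axin2* and *Znrf3* in addition to *Lect2* and *Nkd1*. The calls over all genes rose as well. Of 14340 genes tested, 3509 were called higher without TMM scaling, against 1561 with it. The 2 limma fits called 3632 and 3470 genes in either direction, against 3225. The calls of *Glul*, *Tbx3* and *Lect2* were kept under all 9 other settings in which they were tested and without each liver in turn.

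**Figure D2:**
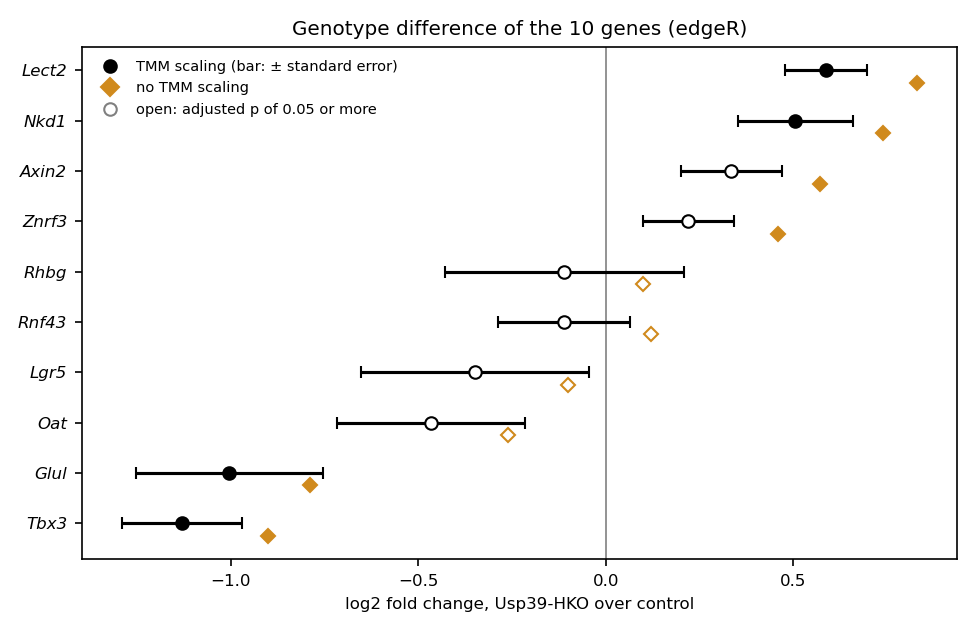
Log2 fold change of each gene (x axis), *Usp39*-HKO over control, by edgeR with TMM scaling (circles, bars ± standard error) and without it (diamonds), with open symbols for an adjusted p of 0.05 or more. *Axin2* and *Znrf3* pass only without TMM scaling, while *Rhbg* and *Rnf43* go from −0.11 to 0.10 and 0.12.

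The feedback regulators were low in the liver, at 1.57 to 3.56 FPKM on average in controls. *Axin2* (ENSMUSG00000000142, chr11:108920349-108950783, plus strand), the scaffold of the destruction complex and a widely used readout of the pathway, was at 2.31, 3.39, 2.62 and 2.51 FPKM in control and at 3.49, 4.15, 3.77 and 4.73 FPKM in *Usp39*-HKO livers. The *Usp39*-HKO livers were all above the controls in FPKM, the closest pair being A469 and control A472. In TMM-scaled FPKM, 2 of the 4 were above all controls. Its log2 fold change was 0.33 ± 0.14 (standard error; edgeR adjusted p = 0.101), and 0.57 without TMM scaling (adjusted p = 0.0166). Without control A472 it was 0.46, with an adjusted p of 0.0194.

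*Nkd1* (ENSMUSG00000031661, chr8:88521354-88594884, plus strand), which binds Dishevelled and restrains the pathway, was at 1.74, 1.68, 1.38 and 1.47 FPKM in control and at 2.66, 2.28, 2.39 and 3.19 FPKM in *Usp39*-HKO livers. The groups did not overlap on either scale (exact permutation test, two-sided, p = 0.0286 on both, the smallest p for groups of this size). In the fit it rose by 0.50 ± 0.15 (standard error, log2 scale; edgeR adjusted p = 0.0366). This call rested on few reads, 54 to 138 counts per liver. It was lost without any 1 of A468, A473, A475, A469, A471 and A474 (adjusted p between 0.0518 and 0.108), and with no filter on low values (adjusted p = 0.0952).

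The ubiquitin ligases *Znrf3* and *Rnf43* differed in pattern. *Znrf3* (ENSMUSG00000041961, chr11:5276324-5444847, minus strand) was at 3.15, 3.16, 3.02 and 3.04 FPKM in control and at 4.69, 4.00, 3.43 and 4.84 FPKM in *Usp39*-HKO livers. Its controls were the tightest of the 10 genes relative to their mean (SD 0.0695 FPKM), and in FPKM the groups did not overlap, whereas in TMM-scaled FPKM A471 lay below all controls. For *Znrf3* the log2 fold change was 0.22 ± 0.12 (standard error; edgeR adjusted p = 0.225), and 0.46 without TMM scaling (adjusted p = 0.0215). *Rnf43* (ENSMUSG00000034177, chr11:87662722-87735539, plus strand) was at 3.30, 3.77, 2.63 and 4.55 FPKM in control and at 3.34, 4.95, 3.15 and 4.10 FPKM in *Usp39*-HKO livers, which overlapped throughout. Its log2 fold change was −0.11 ± 0.18 (standard error; edgeR adjusted p = 0.691), and without TMM scaling the sign turned to 0.12 (adjusted p = 0.655).

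*Lgr5* (ENSMUSG00000020140, chr10:115450311-115587780, minus strand), a receptor for R-spondins, was the lowest of the 10 genes. It was at 1.09, 0.659, 1.27 and 0.926 FPKM in control and at 0.782, 1.26, 0.408 and 1.21 FPKM in *Usp39*-HKO livers, with 40 to 132 counts per liver. The groups overlapped, and both held a liver at or under 0.659 FPKM. Its log2 fold change was −0.35 ± 0.30 (standard error; edgeR adjusted p = 0.448), so a difference was not detectable at this depth and spread.

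*Tbx3* (ENSMUSG00000018604, chr5:119670669-119684724, plus strand), a T-box transcription factor, had the largest log2 fold change of the 10 genes in the fit of all livers. It was at 7.05, 10.1, 7.29 and 7.17 FPKM in control and at 4.41, 5.03, 3.83 and 3.61 FPKM in *Usp39*-HKO livers. The groups did not overlap on either scale, and control A472 stood above the other controls. Its difference of −1.13 ± 0.16 (log2 scale, standard error; edgeR adjusted p = 0.00121) passed under each of the other settings run. Without control A472 it was −0.99 (adjusted p = 0.00197). On the opposite strand *Tbx3os1* overlaps 1.74% of its exon bases, with 7 to 73 counts, and whether the counting used strand is not given.

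*Lect2* (ENSMUSG00000021539, chr13:56542464-56548502, minus strand) encodes a protein that hepatocytes secrete into blood and is the gene whose promoter window is shown first above. It was at 54.5, 62.3, 47.1 and 59.0 FPKM in control and at 95.8, 98.2, 84.3 and 117.2 FPKM in *Usp39*-HKO livers. Every *Usp39*-HKO liver lay above every control on both scales. It rose by a log2 fold change of 0.59 ± 0.11 (standard error; edgeR adjusted p = 0.00409), and leaving out 1 liver at a time moved it between 0.52 and 0.65.

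Among the genes of nitrogen metabolism, *Oat* and *Glul* were the most abundant of all the genes described here, in both genotypes. In FPKM they also had the largest SDs among *Usp39*-HKO livers (184.5 and 41.98). *Rhbg* was low, with a mean of 2.33 and an SD of 1.04 FPKM in *Usp39*-HKO livers. *Glul* (ENSMUSG00000026473, chr1:153899944-153909723, plus strand) encodes glutamine synthetase, which in liver is found in the few hepatocyte layers at the central vein and removes ammonia that the urea cycle leaves. It was at 171.3, 239.9, 188.9 and 199.1 FPKM in control and at 174.4, 101.7, 108.7 and 75.8 FPKM in *Usp39*-HKO livers. A470, A471 and A474 lay below all controls, whereas A469 was above control A468 in deposited FPKM and below all controls once TMM-scaled, at 172.3 against 187.9 in A468. Its log2 fold change was −1.0 ± 0.25 (standard error; edgeR adjusted p = 0.0153). Without A469 it was −1.30 (adjusted p = 0.000782). The exact permutation test gave p = 0.0571 for FPKM and p = 0.0286 for TMM-scaled FPKM (two-sided, 4 livers against 4). A processed pseudogene, *Glns-ps1*, shares 243 bases with *Glul* at 97.9% identity and had 3 to 14 counts, against 2716 to 8993 for *Glul*.

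*Oat* (ENSMUSG00000030934, chr7:132557478-132576398, minus strand), ornithine aminotransferase, was at 542.9, 486.9, 525.8 and 575.1 FPKM in control and at 722.4, 370.7, 340.6 and 351.3 FPKM in *Usp39*-HKO livers. A469 was above every control, and the other 3 were below every control. For *Oat* the log2 fold change was −0.47 ± 0.25 (standard error; edgeR adjusted p = 0.21), and without A469 it was −0.83 (adjusted p = 0.000997). That liver alone decided the call.

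*Rhbg* (ENSMUSG00000104445, chr3:88242874-88254709, minus strand), an ammonium transporter, was at 1.8, 2.66, 2.34 and 1.88 FPKM in control and at 3.82, 2.13, 1.95 and 1.42 FPKM in *Usp39*-HKO livers. The extremes of all 8 livers were both *Usp39*-HKO, A469 at the top and A474 at the bottom. The log2 fold change was −0.11 ± 0.32 (standard error; edgeR adjusted p = 0.842), with 26 to 72 counts per liver, and without TMM scaling its sign turned to 0.10 (adjusted p = 0.821). Its values are uncertain for a further reason, since the gene *Gm38392* on the same strand covers 61.4% of its exon bases and had 0 to 2 counts.

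**Figure D3:**
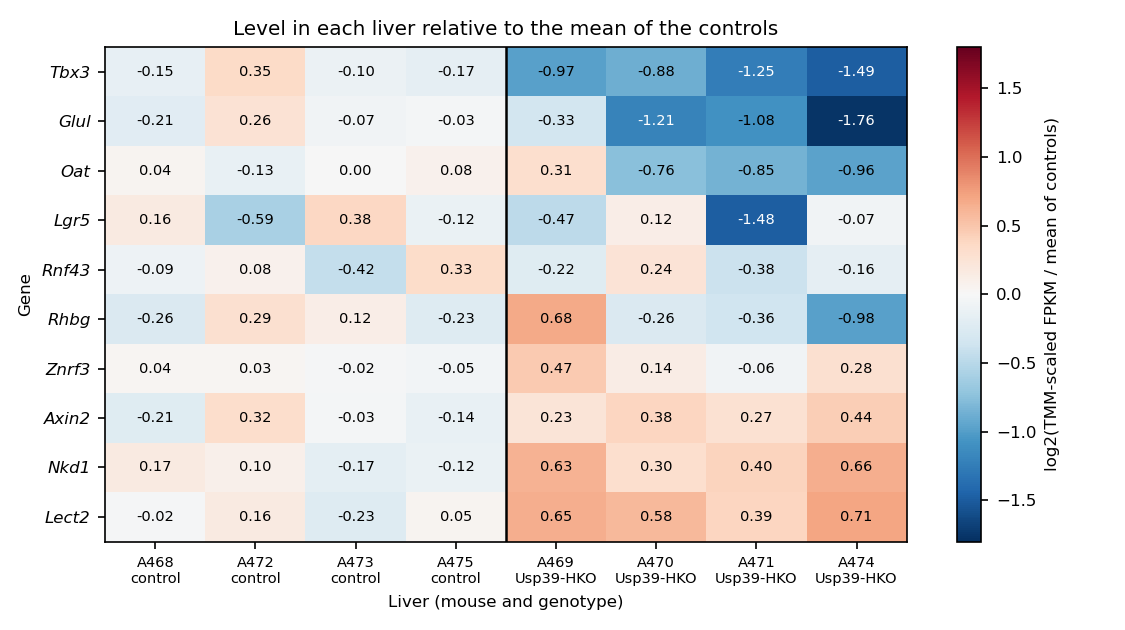
Log2 of TMM-scaled FPKM over the control mean (colour and printed value) for the 10 genes (rows) in each liver (columns), with controls left of the line. *Oat* and *Rhbg* in A469 are above the control mean, and *Glul*, *Oat* and *Tbx3* are lowest in A474.

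The order of the genes changed between genotypes, on the scale of deposited FPKM, which are set per exon length. In controls the order was *Oat* (533 ± 36.7, SD, n = 4), *Glul* (200 ± 29.1), *Lect2* (55.8 ± 6.58) and *Tbx3* (7.90 ± 1.45), and no 2 neighbours among these overlapped. *Rnf43*, *Znrf3*, *Axin2* and *Rhbg* followed, each overlapping its neighbour, then *Nkd1* and *Lgr5*, which did not overlap. In *Usp39*-HKO livers *Oat* (446 ± 184, SD, n = 4) still led, while *Glul* (115 ± 42) and *Lect2* (98.9 ± 13.6) overlapped, and in A474 *Lect2* was above *Glul*. *Tbx3* (4.22 ± 0.637) came to lie among *Znrf3*, *Axin2* and *Rnf43*, with overlapping ranges. The exon length used by the authors for *Glul* is 3782 bases, against 3323 in GENCODE vM21, which bears on its level relative to other genes but not on the comparison of livers.

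Ratios of genes within a library do not depend on the scaling between libraries, so they test whether the genotype differences of a pair of genes differ. The log2 ratio of *Axin2* to *Glul* was −6.20, −6.14, −6.17 and −6.30 in control and −5.64, −4.61, −4.85 and −4.00 in *Usp39*-HKO livers. Controls lay within a narrow band, and all 4 *Usp39*-HKO livers were above it. The mean ratio rose by 1.43, from −6.20 ± 0.072 to −4.77 ± 0.678 (SD, n = 4 each). The exact permutation test, two-sided, gave p = 0.0286, the smallest p for groups of this size. With Benjamini-Hochberg adjustment over the 5 ratios tested the permutation p was 0.143, so it did not pass the correction. A single ratio at the smallest p cannot go below 0.143 over 5 ratios, so the correction could not be passed by this ratio alone. The ratio of *Lgr5* to *Glul* differed by 0.656 (exact permutation p = 0.343), that of *Znrf3* to *Rnf43* by 0.311 (exact permutation p = 0.257), that of *Cyp2e1* to *Glul* by 0.348 (exact permutation p = 0.0857) and that of the periportal *Cyp2f2* to *Glul* by 0.381 (exact permutation p = 0.4). None of these passed.

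**Figure D4:**
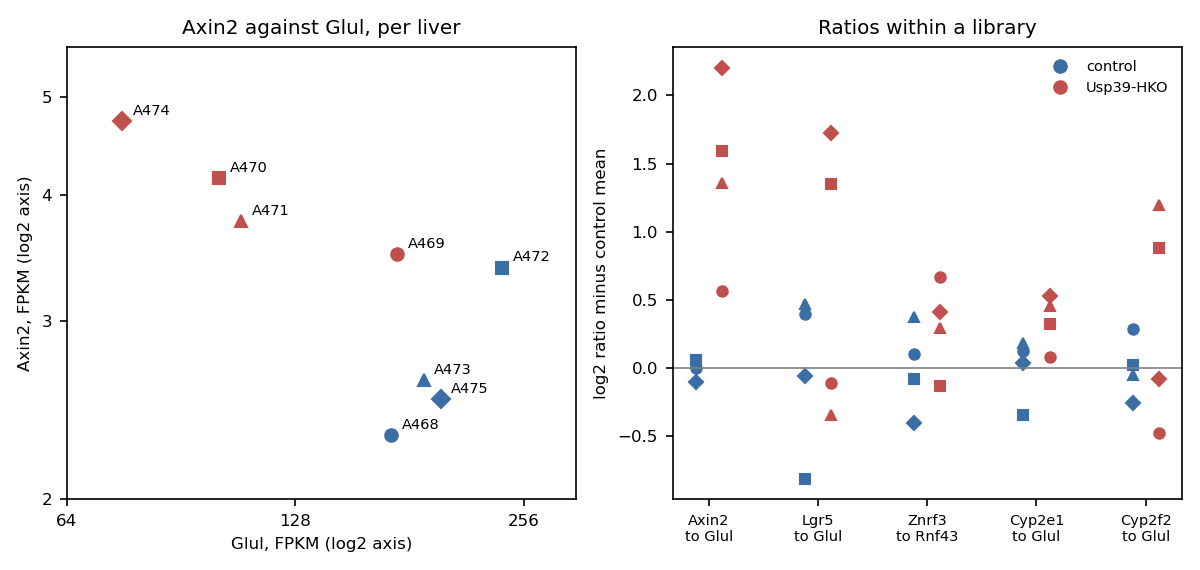
Left, FPKM of *Axin2* against *Glul* in each liver, both on log2 axes; right, the 5 log2 ratios minus their control mean, with 1 point per liver. *Usp39*-HKO livers run from A469 to A474 toward less *Glul* and more *Axin2*, and all 4 lie above the controls in the ratio of *Axin2* to *Glul*.

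Among the 4 *Usp39*-HKO livers the order of *Axin2* (A469, A471, A470, A474, from lowest to highest) was the reverse of the order of *Glul*, which is a description of 4 livers. *Rspo3* followed the order of *Axin2* in deposited FPKM. In TMM-scaled FPKM *Rspo3* did not, since A471 (3.667) lay just below A469 (3.685), while the order of *Axin2* stayed the same. In controls A472 was the highest in both *Axin2* and *Glul*. Ranked by TMM-scaled FPKM, A469 was the highest *Usp39*-HKO liver for 4 of the 10 genes, A470 for 3 and A474 for 3, whereas A471 and A474 were each the lowest for 4.

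Outside the 10 genes, A469 and A474 often lay at opposite ends of the *Usp39*-HKO livers. Of 24 other pericentral genes, A469 was the highest *Usp39*-HKO liver for 14 and A474 the lowest for 17, by TMM-scaled FPKM. This was not particular to pericentral genes. Of 21 periportal genes, A469 was the highest for 10 and the lowest for 5, and A474 the lowest for 13 and the highest for 3. Of 10 hepatocyte markers, A469 was the highest for 6 and the lowest for 0, and A474 the lowest for 8 and the highest for 0. *Slc1a2*, a glutamate transporter, was at 17.1, 15.3, 15.8 and 18.4 FPKM in control and at 14.2, 3.21, 4.76 and 1.78 FPKM in *Usp39*-HKO livers, which is the order of *Glul* among these 4 livers. By TMM-scaled FPKM, A469 was also the lowest *Usp39*-HKO liver for 11 of 11 tested stellate markers and for 5 of 6 cholangiocyte markers. A474 was the highest for 8 of these stellate markers and for 6 of 6 cholangiocyte markers. The *Usp39* FPKM of A469, 8.37, lay within the range of the other *Usp39*-HKO livers. In TMM-scaled FPKM *Usp39* was highest in A469, at 8.27 against 7.95, 8.18 and 6.80 in A470, A471 and A474. The part of stellate cells, of cholangiocytes or of the *Usp39* level in the values of A469 was not tested.

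Of 25 genes for Wnt ligands, R-spondins and their secretion, 8 passed the filter, with 1 called higher, 1 called lower and a median log2 fold change of 0.49 (all genes tested −0.001). Over all genes tested, 10.9% were called higher and 11.6% lower, and the counts of this and each later list stand against these shares. *Rspo3*, the R-spondin that central vein endothelium and stellate cells make, was at 2.36, 2.28, 2.22 and 1.68 FPKM in control and at 3.73, 5.27, 3.90 and 6.25 FPKM in *Usp39*-HKO livers. It rose by a log2 fold change of 0.92 ± 0.18 (standard error; edgeR adjusted p = 0.00528). The central vein ligands *Wnt2* and *Wnt9b* had log2 fold changes of 0.46 (adjusted p = 0.229) and 0.74 (adjusted p = 0.0689) and did not pass, although *Wnt9b* did without control A472 (adjusted p = 0.0201) and without TMM scaling (adjusted p = 0.0208), where 4 genes of the list were called higher. Without A469 the number called higher was 3, and without A472 it was 2. *Wnt5b*, a ligand known for β-catenin-independent signaling, had a log2 fold change of −1.12 (adjusted p = 0.00546). *Wnt3*, *Wnt3a*, *Rspo2* and *Rspo4* were listed at 0 in all 8 livers.

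Of 20 receptor genes, 14 passed the filter, with a median log2 fold change of −0.15. Of these 14, 2 were called higher (background 10.9%) and 2 lower (background 11.6%). The R-spondin receptor *Lgr4* fell by 0.92 on the log2 scale (edgeR adjusted p = 0.0067) and the co-receptor *Lrp5* by 0.37 (adjusted p = 0.0264), while *Fzd6* and *Fzd1* rose by 0.84 and 0.41 (adjusted p = 0.00419 and 0.0421). *Fzd4* (−0.34, adjusted p = 0.0734) and *Lrp6* (−0.18, adjusted p = 0.271, and 0.06 without TMM scaling) did not pass. The calls of *Fzd1* and *Lrp5* were each lost without A468, A475, A469 or A474, that of *Fzd1* also without A473 and that of *Lrp5* also without A471 (adjusted p between 0.0538 and 0.121), and *Fzd4* passed without A472 (adjusted p = 0.0347). *Lgr4* was far more abundant than *Lgr5*, at 9.62 to 15.4 against 0.659 to 1.27 FPKM in controls.

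Among 16 genes of the β-catenin complexes, 14 passed the filter, with a median of 0.00 on the log2 scale. Of these 14, 1 was called higher (background 10.9%) and 1 lower (background 11.6%). β-catenin itself, *Ctnnb1*, was at 38.8, 37.7, 38.7 and 38.3 FPKM in control and at 36.8, 47.9, 42.9 and 54.2 FPKM in *Usp39*-HKO livers, and its log2 fold change was 0.00 ± 0.10 (standard error; edgeR adjusted p = 1). *Axin1*, *Apc* and *Tcf7l2* had log2 fold changes of 0.17, 0.08 and −0.04 (adjusted p = 0.395, 0.576 and 0.846), and that of *Tcf7l2* turned to 0.20 without TMM scaling. *Tcf7*, a TCF factor also known from T cells, rose by 0.97 (adjusted p = 0.00447), and *Btrc*, which marks phosphorylated β-catenin for degradation, fell by 0.64 (adjusted p = 0.00571). *Lef1* was under the filter, at 0.053 to 0.192 FPKM.

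Of 15 genes for inhibitors, 5 passed the filter, with 3 called higher and 1 called lower. *Notum*, a secreted enzyme that inactivates Wnt ligands and that pericentral hepatocytes express, was at 11.8, 10.7, 8.61 and 10.2 FPKM in control and at 7.65, 8.92, 9.31 and 8.85 FPKM in *Usp39*-HKO livers. The groups overlapped in FPKM, and its log2 fold change was −0.49 ± 0.12 (standard error; edgeR adjusted p = 0.0163), which was −0.25 without TMM scaling (adjusted p = 0.165). The 3 genes called higher were *Dkk3* (2.04), *Sfrp1* (1.8) and *Frzb* (1.34), secreted proteins of the Dickkopf and secreted frizzled-related families. The call of *Notum* was lost without A468 (adjusted p = 0.0525), which left 0 of the list called lower.

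**Figure D5:**
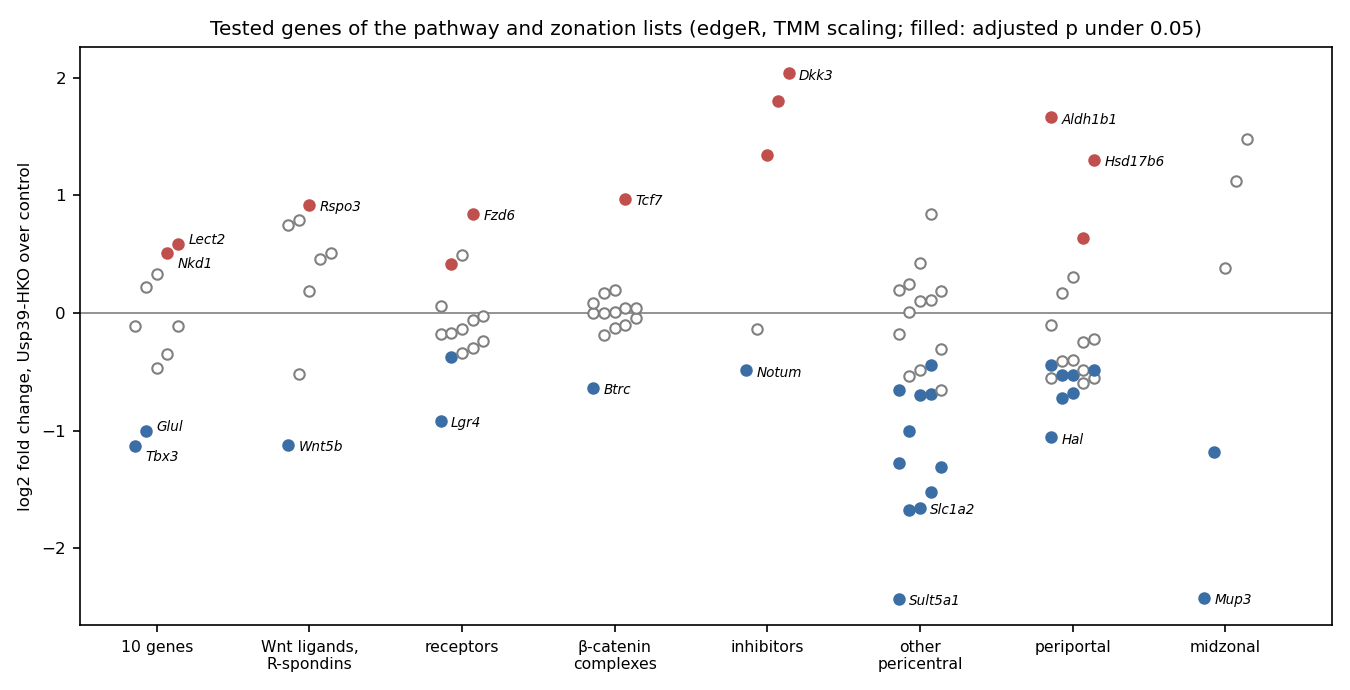
Log2 fold change (y axis) of the tested genes of each pathway and zonation list (x axis), by edgeR with TMM scaling, with 1 point per gene, filled red for higher, filled blue for lower and open for an adjusted p of 0.05 or more. The 10 genes spread from −1.13 to 0.59, and the other pericentral genes from −2.43 to 0.84.

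The 24 other pericentral genes, which serve drug, bile acid and glutamate metabolism, all passed the filter. Of these 11 were called lower and 0 higher by edgeR, with a median log2 fold change of −0.51. At an unadjusted p under 0.05, 2 were higher and 14 lower, and DESeq2 called 1 higher and limma 5. The drug-metabolizing enzymes *Cyp2e1* and *Cyp1a2* fell by 0.70 and 0.44 on the log2 scale (edgeR adjusted p = 0.0286 and 0.0397), *Slc1a2* by 1.66 (adjusted p = 0.038), the sulfotransferase *Sult5a1* by 2.43 (adjusted p = 0.00295), and *Cyp7a1*, the rate-limiting enzyme of bile acid synthesis, by 1.68 (adjusted p = 0.0165). *Sp5*, a transcription factor induced by Wnt signaling, was at 0.499 to 1.19 FPKM and its log2 fold change was −0.31 (adjusted p = 0.518). Without TMM scaling 5 were called higher and 10 lower, and the number called lower was 5 without control A473 and 7 without A471. The call of *Slc1a2* was kept only without A469 (−2.58, adjusted p = 0.000251), that of *Cyp1a2* only without A472 or A469, that of *Cyp2e1* only without A472, A469 or A474, and that of *Cyp7a1* in every case but A473 (adjusted p otherwise between 0.0535 and 0.104).

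The 21 periportal genes did not move the other way. Of these 7 were called lower and 3 higher, with a median log2 fold change of −0.45. *Hal*, *Pigr* and *Gls2* fell by 1.06, 0.72 and 0.53 on the log2 scale (edgeR adjusted p = 0.00687, 0.0125 and 0.0272), while *Aldh1b1*, *Hsd17b6* and *Cdh1* rose by 1.66, 1.30 and 0.64 (adjusted p = 0.000385, 0.00687 and 0.0435). *Arg1* of the urea cycle and *Cyp2f2* had log2 fold changes of −0.24 and −0.56 (adjusted p = 0.368 and 0.237). Without TMM scaling 3 were called lower and 5 higher. The number called lower was 3 without A468, A473 or A475, 4 without A471 and 11 without A469. The call of *Cdh1* was kept only without A469 and that of *Gls2* only without A472, A469 or A470 (adjusted p otherwise between 0.0529 and 0.125), and *Arg1* passed without A469 (adjusted p = 0.0239). Of 5 midzonal genes 2 were called lower, *Mup3* (−2.43, adjusted p = 0.0309) and *Cyp8b1* (−1.18, adjusted p = 0.00492), of which *Mup3* was lost without A468, A473, A475, A469 or A470 (adjusted p between 0.0568 and 0.0666).

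Markers of other liver cells moved with the genotype, and their part in the values of the 10 genes was not tested. Stellate cell markers summed to 84.9 to 99.3 FPKM in control and to 134 to 303 FPKM in *Usp39*-HKO livers, and 9 of 11 tested were called higher, led by *Lum* (2.42) and *Col1a1* (1.70). For Kupffer cells and macrophages the sums were 301 to 389 and 550 to 826 FPKM, with 7 of 9 called higher (4 without A473), led by *Marco* (1.25) and *Ccr2* (0.98). Cholangiocyte markers summed to 35.1 to 37.5 and 74.1 to 299 FPKM, and *Spp1* (2.33), *Epcam* (2.11), *Krt19* and *Sox9* were called higher among 6 tested. Of 7 proliferation markers 6 were called higher, led by *Ccnb1* (3.38) and *Ccna2* (2.25).

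Endothelial cells, the source of central vein Wnt ligands, were less uniform. Their markers summed to 189 to 210 FPKM in control and to 206 to 231 FPKM in *Usp39*-HKO livers. Of 16 tested, *Thbd* (log2 fold change 1.33), *Selp* (1.15) and *Cdh13* were called higher, *Lyve1* (−1.0) and the scavenger receptor *Stab2* (−0.37) were called lower, and without TMM scaling 8 were called higher and 1 lower. The call of *Stab2* was kept only without A469 and that of *Lyve1* was lost without A473, so that 4 were called lower without A469, 0 without A473 and 1 without any other liver. Of 6 tested lymphocyte markers 0 were called by edgeR, also at an unadjusted p under 0.05, 0 by DESeq2, and 1 and 2 were called higher by limma with pseudocounts of 1 and 0.1. Hepatocyte markers, which check the labelled tissue, summed to 18380 to 21400 and 17320 to 22390 FPKM. All 10 had a negative log2 fold change, with a median of −0.32. Of these 3 were called lower, *Cebpa* (−0.67), *Apob* (−0.60) and *Serpina1a*, against 1 without A473 and 1 without TMM scaling. The call of *Apob* was lost without A468, A473, A475 or A471 (edgeR adjusted p between 0.0612 and 0.103). *Serpina1a*, like *Mup3* above, belongs to a family of near-identical copies, so its counts are uncertain. In none of these marker lists was a gene at 0 in all livers.

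For *Glul* and *Axin2* the genes with the most similar profile over the 8 livers were found by the root mean square difference of centred log2(TMM-scaled CPM + 1). Nearest to *Glul* were the lincRNA *Gm8883* (0.115), *Hsd11b1* (0.142), which activates glucocorticoids, and the glycine transporter gene *Slc6a9* (0.159), against a median of 0.689 over all genes tested. *Tbx3* and *Oat* ranked 85 and 232 by nearness to *Glul*, and *Axin2* ranked 11157. Nearest to *Axin2* were the immunoglobulin segment *Ighv6-3* (0.0591), *Kyat3* (0.060) and *Ramp1* (0.0647), against a median of 0.318, and *Lect2*, *Nkd1* and *Znrf3* ranked 1227, 1381 and 1733. *Glul* was near the far end of that order, at 13986 of 14340. *Ighv6-3* was near *Axin2* by this measure but not in fold change. Its log2 fold change was 1.26 (edgeR adjusted p = 0.121), against 0.33 for *Axin2*. It was low, at 0.509 FPKM on average in control and 1.51 FPKM in *Usp39*-HKO livers, and the added 1 shrinks differences at low counts.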

How the data were processed

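Reads of 8 liver libraries (NEB Next Ultra kit, paired-end, NovaSeq) were trimmed with Trim Galore 0.6.1 and checked with FastQC 0.11.9, per the submitters' processing notes, aligned by the authors to mm10 with HISAT2 and counted with featureCounts. The annotation release, strand setting and treatment of multiply mapped reads are not given in the sources used here. The authors deposited raw counts, exon length and FPKM per gene. From their DESeq2 comparison, the authors also deposited a mean normalized signal, a log2 fold change, its standard error and Wald statistic (scores), and p-values, which were not used. Of 55699 entries, 314 repeated ones, which differed only in symbol, were read once.

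The 10 genes and all gene lists were chosen with earlier results of these data known. Genes with FPKM of at least 0.5 in 4 livers were compared with edgeR 4.0.16 (R 4.3.3; quasi-likelihood test on counts, TMM scaling, two-sided, Benjamini-Hochberg adjustment over all 14340 genes), called at an adjusted p under 0.05. TMM-scaled FPKM are FPKM divided by the TMM factor. Single values and ratios (offset 0.01 FPKM) were compared with exact permutation tests over 70 assignments. Alternatives were other scalings, DESeq2 1.42.0, limma 3.58.1, other filters, the methods' cutoff and leaving out each liver. Counts for the lists under these alternatives were added after seeing the data. Scripts were tested on simulated data. The rule for named genes covered the 10 genes, *Usp39*, 21 pathway and zonation genes, the 2 largest calls in each direction per list, and the 3 nearest profiles to *Glul* and *Axin2*. *Frzb*, *Cdh13*, *Serpina1a*, *Krt19* and *Sox9*, and the genes listed at 0, were named after their values were seen. Coordinates are those of GENCODE vM21 (GRCm38), and overlaps and shared sequence (BLAST+) were read from it.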

Additional observations from a re-analysis of the deposited data

Results flagged for a closer look

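In 130 groups of 4 livers, the named genes and the 5 ratios in each genotype, a liver was singled out where its gap to the next exceeded Dixon's 95% critical value as a share of the group's range. Chance singles out about 1 in 20 such groups, and 10 were found. For the 10 genes these were *Oat* in *Usp39*-HKO liver A469, at 722.4 FPKM against 340.6 to 370.7 in the others, and *Tbx3* in control A472, at 10.07 FPKM against 7.054 to 7.294. Control A472 also held the lowest control value of *Fzd4* (9.262 FPKM against 11.49 to 11.83) and the highest of *Axin1* (8.644), *Thbd* (3.712), *Epcam* (1.287), *Marco* (49.1) and *Ccna2* (1.186). *Tcf7l2* was lowest in control A475 (2.331 against 2.768 to 2.788), and *Lyve1* highest in control A473 (28.76 against 20.88 to 21.77).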

How the results depend on the processing

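Between 2 and 3 of the 10 genes were called lower with 1 liver left out in turn, *Oat* joining without A469, and 2 under every other setting. The number called higher was 4 without TMM scaling and in both limma fits, 1 with no filter and where a mean FPKM of 5 or more was asked for (which left 4 of the 10 genes), and 1 to 3 with 1 liver left out. Over all genes, 1595 were called at that mean FPKM, against 3225, and 1931 to 3510 with 1 liver left out. Those called higher over all genes numbered 3509 without TMM scaling, against 1561 with it. The difference in the log2 ratio of *Axin2* to *Glul* ranged from 1.17 to 1.72 with 1 liver left out, where the smallest permutation p that 3 against 4 allow is 0.0571. Signs turned for values that had not passed. *Rhbg*, which ranged from −0.48 to 0.10 with 1 liver left out, was at 0.10 without TMM scaling, 0.03 and 0.02 in limma with pseudocounts of 1 and 0.1, and 0.10 without A474. *Rnf43* was at 0.12, 0.10 and 0.13 in these settings and ranged from −0.25 to 0.02, positive without A475. *Lrp6* was at 0.06, 0.06 and 0.06, and *Tcf7l2* at 0.20, 0.14 and 0.18, at 0.02 with upper-quartile scaling and ranged from −0.12 to 0.04, positive without A471. The cause was not tested. Without TMM scaling, the number of list genes called higher went from 1 to 4 for ligands and for β-catenin complexes, from 0 to 5 for other pericentral genes and from 3 to 8 for endothelial markers. The list of pericentral genes called lower ranged from 5 to 13 with 1 liver left out, and that of periportal genes from 3 to 11. No paired analysis was possible because the replicate numbers were given in accession order. Depth limits *Rhbg*, *Lgr5* and *Nkd1* most, with 26 to 138 counts per liver.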
